A study of Mus musculus with 18 samples.

Results

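The genes described here are 7 enzymes of cholesterol synthesis, named in pathway order as Hmgcs1, Mvk, Idi1, Fdps, Sqle, Msmo1 and Dhcr7. Every probe set whose platform gene symbol is one of these names was taken, which gave 11 probe sets of the 12422 tested and 7 genes of the 8251 with a named probe set. Each gene is represented by its probe set with the highest mean signal unless another is named. The study hybridised RNA of 3T3-F442A adipocytes to 18 arrays of the Affymetrix MG_U74Av2 design. These mouse cells grow as preadipocytes and store fat once differentiated in culture, and all groups share the line. The 6 groups were control cells and cells treated with growth hormone (GH), each collected at 30 min, 4 h and 48 h, with 3 arrays a group. Each of 3 numbered experiments supplied 1 array to every group. The GH dose, the culture medium and the serum or cholesterol supply are not given in the sources used here. The labels do not say that the numbered experiments were separate cultures, and p-values then cover only the spread among these arrays, which may be technical.

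Cholesterol is built from acetyl-CoA through mevalonate, farnesyl diphosphate, squalene and lanosterol. The genes of this pathway are known as targets of the SREBP transcription factors, mainly SREBP-2, which are released from the endoplasmic reticulum when membrane sterol is low and bind sterol regulatory elements in promoters, often beside bound NF-Y or Sp1. Adipocytes hold a large store of free cholesterol at the surface of their lipid droplets, most of it taken up from lipoproteins. Hmgcs1 encodes the cytosolic synthase that makes HMG-CoA. Mvk encodes mevalonate kinase, and Idi1 encodes the isomerase that makes dimethylallyl diphosphate. Fdps encodes farnesyl diphosphate synthase, whose product also supplies the lipid groups attached to small GTPases. Sqle encodes squalene epoxidase, a rate-limiting oxygenase of the sterol-specific branch. Msmo1 encodes a methylsterol oxidase that removes methyl groups from lanosterol-derived sterols, and Dhcr7 encodes the reductase that makes cholesterol from its last precursor in one route.

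The promoters are shown because the 7 genes are known targets of the same factor family, and all but Mvk varied together closely across the arrays. The RefSeq promoter table, on build GRCm38.p6, held 5 of the 7 genes, and Fdps and Sqle are named only. The 250 bases before the start were searched on both strands for TCACNCCAC (a sterol regulatory element), CCAAT (the NF-Y box), GGGCGG (the Sp1 box) and CACGTG (an E-box). Dhcr7 has 3 annotated starts and is not printed. The windows of the other 4 genes lie at chr13:119690101-119690350 on the plus strand (Hmgcs1), chr5:114444019-114444268 on the plus strand (Mvk), chr13:8885356-8885605 on the plus strand (Idi1) and chr8:64733579-64733828 on the minus strand (Msmo1). Capitals mark TCACNCCAC and CCAAT, which reads ATTGG where the match is on the other strand.
Hmgcs1: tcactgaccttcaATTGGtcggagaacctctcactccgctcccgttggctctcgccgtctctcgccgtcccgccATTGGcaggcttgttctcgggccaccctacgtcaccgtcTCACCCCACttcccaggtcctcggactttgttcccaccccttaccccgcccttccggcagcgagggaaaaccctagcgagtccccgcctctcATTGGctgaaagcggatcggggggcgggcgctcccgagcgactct
Mvk: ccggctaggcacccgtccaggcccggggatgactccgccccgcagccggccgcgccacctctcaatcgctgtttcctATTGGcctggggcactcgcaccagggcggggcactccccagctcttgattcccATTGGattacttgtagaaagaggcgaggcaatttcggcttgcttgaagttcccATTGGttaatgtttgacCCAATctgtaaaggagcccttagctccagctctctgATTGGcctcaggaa
Idi1: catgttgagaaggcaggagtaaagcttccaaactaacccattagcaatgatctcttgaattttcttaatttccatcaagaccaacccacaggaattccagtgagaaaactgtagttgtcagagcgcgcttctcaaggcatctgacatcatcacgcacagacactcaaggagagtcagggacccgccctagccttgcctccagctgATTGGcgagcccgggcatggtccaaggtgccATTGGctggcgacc
Msmo1: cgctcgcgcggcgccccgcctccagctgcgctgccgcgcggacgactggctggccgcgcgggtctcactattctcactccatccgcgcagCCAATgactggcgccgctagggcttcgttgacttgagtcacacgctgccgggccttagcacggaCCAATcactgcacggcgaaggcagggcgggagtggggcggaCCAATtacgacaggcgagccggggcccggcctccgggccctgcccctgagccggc
All 5 genes had a CCAAT box in at least 1 window, a motif held by 37.5% of the 27025 genes in the table in at least 1 window of the same length. In Dhcr7 it stood in 1 of 3 windows. All 5 also had GGGCGG, as 35.4% of genes do. TCACNCCAC was found in Hmgcs1 alone, as TCACCCCAC with its first base 137 bases before the start, and 1.22% of genes hold it. CACGTG was found at 1 start of Dhcr7 and in 6.86% of genes. None of the 28 matches in these windows overlapped a match of another motif. These matches describe letters in the sequence and were not tested as binding sites.

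The deposited values were already scaled between arrays, with a trimmed mean of 500.3 on every array. Signals are in linear array units, and changes are differences of log2(signal + 25). The highest signal of 19 probe sets for yeast and bacterial transcripts was 105.6 and served as the background level. Socs2, a feedback inhibitor of GH signalling, had GH signals of 837, 737.9 and 1600.3 at 4 h and control signals of 69.8, 28 and 83.3. All 3 control arrays were below background, so GH was at least 7.83-fold higher, with control arrays set to the background level (adjusted p = 0.00052 for the measured values, limma, 3 arrays a group). Among the 8 measured adipocyte markers, all were above background on every array. Of the 7 preadipocyte and fibroblast markers, only Vim had a mean below background. All 4 endothelial markers and 3 of 5 macrophage markers, Ptprc and Adgre1 among them, had means below it, while 1 macrophage marker was above it on every array. Of the 4 skeletal muscle markers 1, Myog, had a mean below it, and 2 were above it on every array. Title and description disagree on the group of 3 arrays, and titles were used. By description, experiment 1 would have GH 48 h in place of its GH 30 min array, and experiment 3 would have control 4 h and GH 30 min in place of its control 48 h and GH 4 h arrays. The early GH response genes Fos and Socs3 had signals of 5528.7 and 4530.3 on the array titled GH 30 min of experiment 1, and of 116.3 and 67.9 on that titled GH 48 h. On the arrays of experiment 3 their signals were 60.6 and 505.3 under the title GH 4 h and 7899.7 and 5031.8 under GH 30 min. Both disputed GH arrays thus had the levels of the group in their titles, and at 4 h and 48 h in control cells Fos was below background, so it does not separate those groups.

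Experiment 3 stood apart from the other experiments, and this touches every result below. With the groups in the model, limma found 2182 probe sets (17.6%) that differed between experiment 3 and the mean of experiments 1 and 2, but 13 (0.105%) between experiments 2 and 1. This comparison was added after the data were seen. Higher in experiment 3 were 6 of the 7 sterol synthesis genes, against 9.37% of all probe sets. Their level was raised by 1.33 for Idi1 (2.51-fold, SE 0.15), 1.22 for Hmgcs1 (2.33-fold, SE 0.13), 1.03 for Fdps (2.05-fold, SE 0.12), 1.00 for Sqle (2.00-fold, SE 0.24), 0.89 for Msmo1 (1.85-fold, SE 0.14) and 0.51 for Dhcr7 (1.42-fold, SE 0.16). The adjusted p-values of limma lay between 6.7e-05 and 0.0477. Mvk differed by 0.31 (adjusted p = 0.0649). Hmgcs1, Idi1, Fdps and Msmo1 had their highest signal of the group in experiment 3 in all 6 groups, as did 4.52% of all probe sets. In the 9 control arrays alone, Hmgcs1, Idi1, Fdps and Dhcr7 were called higher, against 1.02% of probe sets. Preadipocyte and fibroblast markers were also higher in experiment 3, 4 of 7 called with a median of 0.72, while 4 of 8 adipocyte markers were called lower, against 8.2% of all probe sets, with a list median of -0.36. The part of this difference between experiments in the results for the sterol genes was not tested. The share of cells at each stage and the RNA per cell cannot be told apart in bulk RNA.

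**Figure D1:**
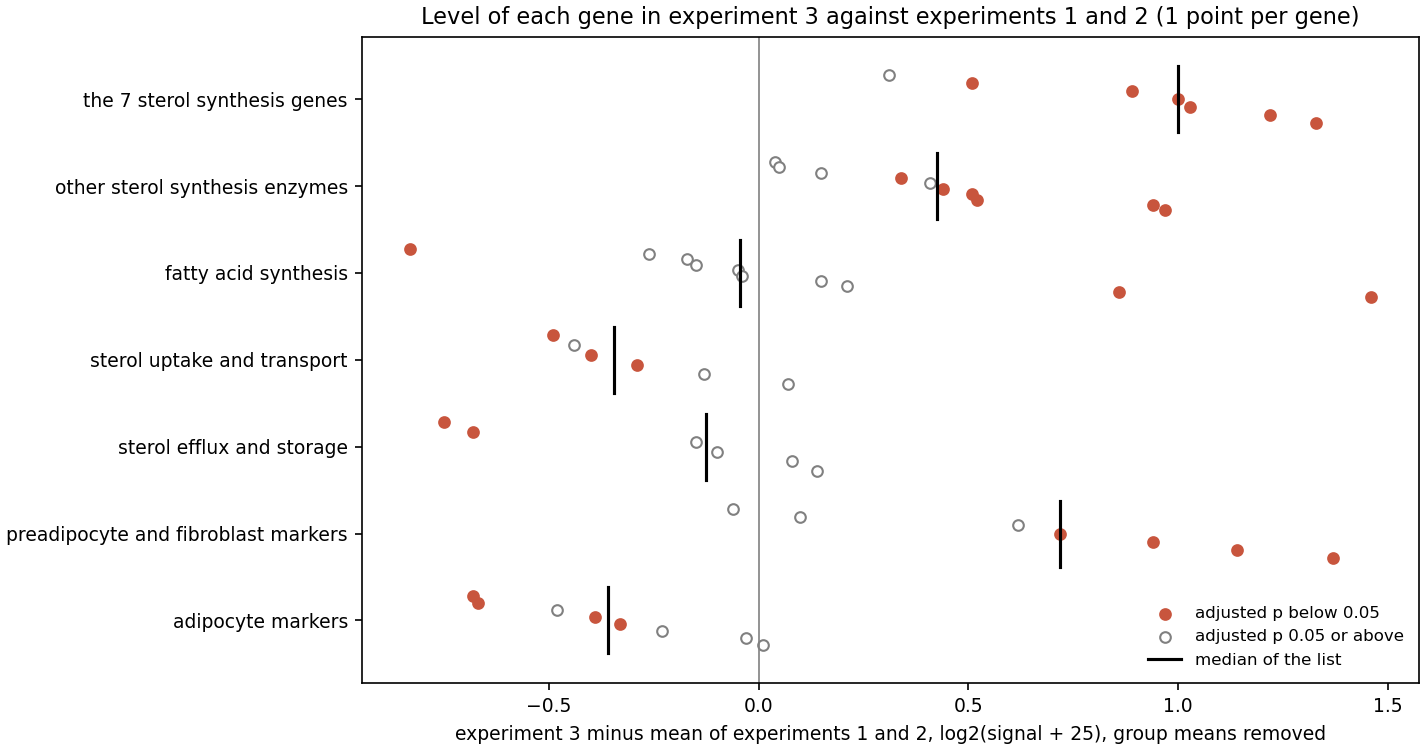
Difference of each gene between experiment 3 and the mean of experiments 1 and 2 on the log2(signal + 25) scale, with the group means removed (x axis), for 7 gene lists (rows). Each point is 1 gene, filled where the adjusted p is below 0.05, and the black line is the list median, which lies at 1.00 for the 7 sterol synthesis genes and at -0.36 for the adipocyte markers.

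At 4 h, the means of all 7 genes were higher with GH than in control cells, and the difference was carried by experiments 1 and 2. Sqle differed most, by 2.27-fold on the log scale, followed by Idi1 (1.77-fold), Dhcr7 (1.76-fold) and Msmo1 (1.73-fold). Fdps differed by 1.39-fold, Hmgcs1 by 1.28-fold and Mvk by 1.08-fold. No gene passed the adjusted threshold over all 3 experiments (0 of 7 by limma, against 0.121% of all probe sets).

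The squalene epoxidase gene Sqle had control signals of 414.8, 335.4 and 1925 in experiments 1, 2 and 3, and signals of 1424.7, 1726.5 and 1407.4 with GH. Within an experiment GH over control was 3.43, 5.15 and 0.731, so the gene was higher with GH in 2 of 3 experiments. The GH arrays lay close together, and the groups overlapped because the control array of experiment 3 was the highest of the 6. The change was 1.19 ± 0.56 (SE, 3 arrays a group; adjusted p = 0.723, limma).
The sterol reductase gene Dhcr7 had control signals of 161.6, 196.2 and 346.5 and GH signals of 425.1, 520.5 and 314.2. Here too the GH array was above its control in experiments 1 and 2, and slightly below it in experiment 3. The change was 0.81 ± 0.35 (SE, adjusted p = 0.662, limma, 3 arrays a group).
For the isomerase gene Idi1 the control signals were 368.8, 295.2 and 1426.3 and the GH signals 796.5, 857.9 and 1375.7. Both arrays of experiment 3 exceeded all others of these groups, and GH over control was 2.16, 2.91 and 0.965. The change was 0.82 ± 0.60 (SE, adjusted p = 0.900, limma, 3 arrays a group).
Msmo1 had control signals of 438.8, 542.1 and 1441 and GH signals of 900.8, 1195.6 and 1750.9. It was the only one of the 7 genes that was higher with GH in all 3 experiments, by ratios of 2.05, 2.21 and 1.22, as were 16.8% of probe sets. The change was 0.79 ± 0.43 (SE, adjusted p = 0.807, limma, 3 arrays a group).

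Fdps, Hmgcs1 and Mvk had the smallest differences of the 7 at 4 h. Fdps had control signals of 2012, 2286.5 and 6983.4 and GH signals of 3118.2, 4202.7 and 6658. Its ratios were 1.55, 1.84 and 0.953, and its change was 0.48 ± 0.47 (SE, adjusted p = 0.966, limma, 3 arrays a group). Hmgcs1 had control signals of 899.8, 918.2 and 2988.2 and GH signals of 1136.8, 1793.8 and 2573.5. Again the GH array was the higher one in experiments 1 and 2 and the lower one in experiment 3, and the change was 0.35 ± 0.55 (SE, adjusted p = 0.999, limma, 3 arrays a group). Mvk stayed between 408 and 653.1 in control cells and between 477.1 and 645.7 with GH. The ranges overlapped almost whole, and its change was 0.11, with a 95% interval of -0.36 to 0.58.

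At an unadjusted p below 0.05, Sqle (0.0491) and Dhcr7 (0.0319) passed among the 7 genes at 4 h, against 3.64% of all probe sets in that direction. With the experiment as a replicate block, 5 of the 7 passed at the unadjusted level, against 5.22% of probe sets in that direction, and 0 after adjustment, when 0.362% of probe sets were called. The lowest adjusted p with the block was 0.185, for Msmo1. Without experiment 3, the change was 2.00 for Sqle (adjusted p = 0.0121, limma, 2 arrays a group), 1.29 for Dhcr7 (0.0635), 1.26 for Idi1 (0.0635), 1.05 for Msmo1 (0.0646), 0.75 for Fdps, 0.64 for Hmgcs1 and 0.17 for Mvk. In that fit 0.853% of probe sets were called, and Sqle was the 1 gene of the 7 among them. With the block and without experiment 3, Sqle (adjusted p = 0.017) and Dhcr7 (0.0356) were called, among 1.33% of probe sets.

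Set by experiment, the same values show where the arrays part. In control cells at 4 h, the signal in experiment 3 was 5.13 times the mean of experiments 1 and 2 for Sqle, 4.30 times for Idi1, 3.29 times for Hmgcs1, 3.25 times for Fdps, 2.94 times for Msmo1 and 1.94 times for Dhcr7. With GH at 4 h these ratios were 0.893 for Sqle, 0.665 for Dhcr7 and between 1.66 and 1.82 for Idi1, Hmgcs1, Fdps and Msmo1. For Sqle, the control level of experiment 3 was thus above the GH level of every experiment. The ratio of GH to control over the means of experiments 1 and 2 was 4.20 for Sqle, 2.64 for Dhcr7, 2.49 for Idi1 and 2.14 for Msmo1.

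**Figure D2:**
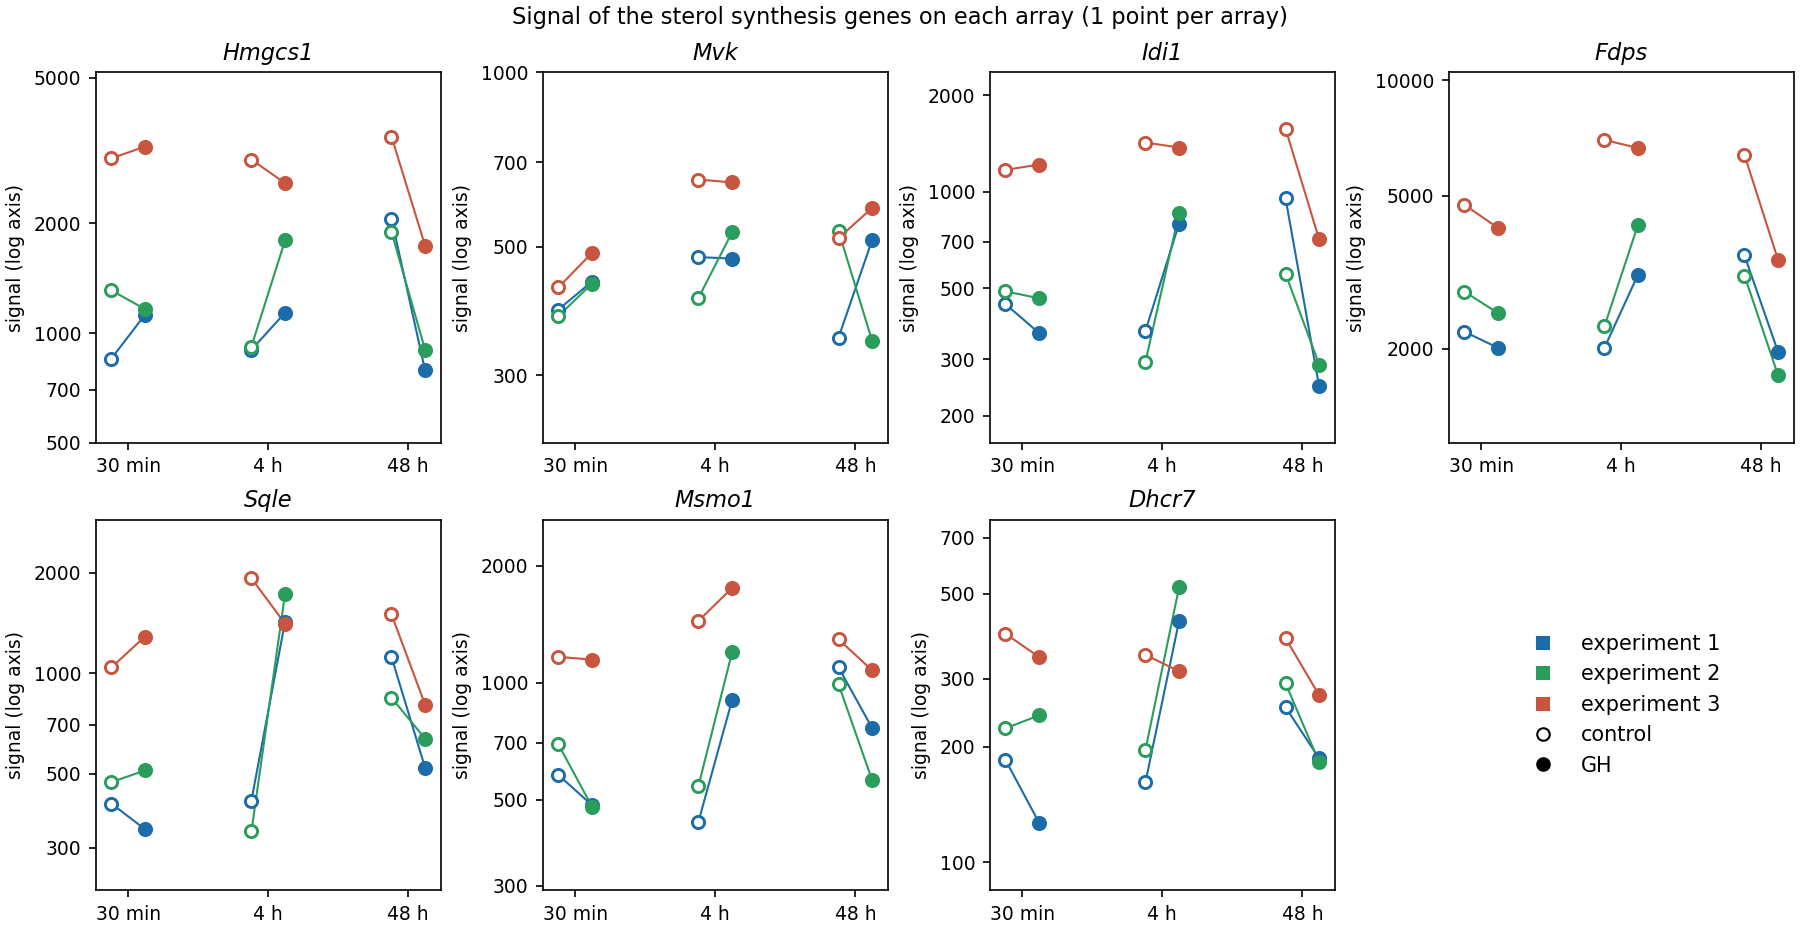
Signal of the 7 genes on each of the 18 arrays (y axis, linear array units on a log axis) at 30 min, 4 h and 48 h (x axis), with open circles for control, filled circles for GH and lines joining arrays of 1 experiment. At 4 h the lines of experiments 1 and 2 go up for Sqle, where control lies at 414.8 and 335.4, and the line of experiment 3 starts at 1925.

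At 48 h, 6 of the 7 genes were lower with GH, in all 3 experiments each, and experiment 3 moved the same way as the others. The largest differences were in Idi1 (2.44-fold lower), Hmgcs1 (2.19-fold lower) and Fdps (1.82-fold lower), followed by Sqle (1.72-fold), Msmo1 (1.43-fold) and Dhcr7 (1.41-fold). Mvk differed by 1.02-fold. None passed the adjusted threshold without the block (0 of 7 by limma, against 0.338% of all probe sets). Idi1 passed at an unadjusted p of 0.0485, where 2.86% of probe sets did in that direction, and 4 of the 7 genes did with the block, where 4.97% of probe sets did. With the experiment as a block, Hmgcs1, Idi1 and Fdps were called lower with GH (3 of 7, against 0.58% of all probe sets called lower and 1.27% called in all).

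Hmgcs1 had control signals at 48 h of 2056.9, 1893.5 and 3454.7 in experiments 1, 2 and 3, and signals of 789.8, 899.6 and 1735.4 with GH. Every GH array was below every control array. The change was -1.13 ± 0.55 (SE, adjusted p = 0.781, limma, 3 arrays a group), and with the block the SE was 0.22 and the adjusted p 0.0223.
Idi1 had control signals of 955.8, 555.9 and 1575.5 and GH signals of 247.1, 289.3 and 710.9. The groups overlapped, since the GH array of experiment 3 was above the control array of experiment 2. The change was -1.29 ± 0.60 (SE, adjusted p = 0.761, limma, 3 arrays a group), with an adjusted p of 0.025 in the blocked fit.
For Fdps the control signals were 3500.3, 3102.2 and 6392.6 and the GH signals 1964.4, 1708.4 and 3406.1. GH over control was nearly the same in the 3 experiments, at 0.561, 0.551 and 0.533. The change was -0.86 ± 0.47 (SE, adjusted p = 0.845, limma, 3 arrays a group), with an adjusted p of 0.0487 in the blocked fit.

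Sqle had control signals of 1118.3, 844.2 and 1500.7 at 48 h and GH signals of 520.6, 636.5 and 804.6. All GH arrays were below all control arrays, as they were for Hmgcs1 and for 4.92% of all probe sets. The change of Sqle was -0.78 ± 0.56 (SE, adjusted p = 0.914, limma, 3 arrays a group; 0.534 with the block). Msmo1 had control signals of 1094.7, 990.4 and 1292.4 and GH signals of 764, 561.4 and 1074.9, with a change of -0.52 ± 0.43 (SE). Dhcr7 had control signals of 253.3, 292.5 and 383.4 and GH signals of 186.3, 182.1 and 271.9, with a change of -0.49 ± 0.35 (SE). Both genes were lower with GH within each experiment while their groups overlapped. Mvk, with control signals of 348.6, 532.4 and 517.5 and GH signals of 513.4, 344.2 and 583.3, moved in opposite directions in experiments 1 and 2, and its change was 0.03 with a 95% interval of -0.44 to 0.50.

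The blocked calls at 48 h were lost when any whole experiment was left out. Without experiment 3 the changes were close to those above (-1.20 for Hmgcs1, -1.37 for Idi1, -0.84 for Fdps, -0.73 for Sqle), but 0 of 7 genes were called, without or with the block (limma, 0.829% and 1.17% of probe sets called), and the lowest adjusted p was 0.0549, for Hmgcs1 with the block. Leaving out experiment 1 or experiment 2 also left 0 of 7 called. The 3 arrays of conflicting labels include the control 48 h array of experiment 3. Without these arrays the blocked fit still called Hmgcs1 (adjusted p = 0.0225, limma) and Idi1 (0.034), among 1.14% of probe sets. Lower in 3 of 3 experiments at 48 h were 14% of all probe sets. Some markers of the adipocyte and of the preadipocyte and fibroblast lists were also lower with GH at 48 h. The summed signal of the 8 adipocyte markers was 80755 to 88052 in control and 66093 to 80468 with GH at 48 h, and that of the 7 preadipocyte and fibroblast markers was 25153 to 40306 and 11416 to 40529. With the block, Postn (-1.65), Lox (-1.50) and Col3a1 (-1.15) of the preadipocyte and fibroblast list were called lower with GH (3 of 7). Of the adipocyte list Retn (-0.58) was called lower (1 of 8), and of all probe sets 0.58% were. The median of the preadipocyte and fibroblast list was -1.41, -1.30 and 0.03 in experiments 1, 2 and 3. That of the adipocyte list was -0.01, -0.29 and -0.69. No macrophage, endothelial or skeletal muscle marker was called at 48 h by limma without or with the block, and 1 macrophage marker in each direction passed at the unadjusted level. The part of these shifts in the sterol gene differences was not tested.

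At 30 min, GH and control cells differed little in the 7 genes. The changes ran from -0.26 for Msmo1 to 0.17 for Mvk, and 0 of 7 genes were called by limma without or with the block, against 0.0403% and 0.0805% of probe sets. None of the 7 passed at an unadjusted p below 0.05, which 0.845% of probe sets did in the higher and 1.6% in the lower direction. The signals of Hmgcs1 were 850.9, 1308.9 and 3011.7 in control and 1122.4, 1162.9 and 3240.9 with GH, which shows how much larger the spread over experiments was than the difference with GH. Mvk had its 3 GH arrays, at 432.1 to 488.1, above its 3 control arrays, at 379.7 to 425.5, as 2.32% of probe sets did. The 95% interval of the Mvk change was -0.30 to 0.64.

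**Figure D3:**
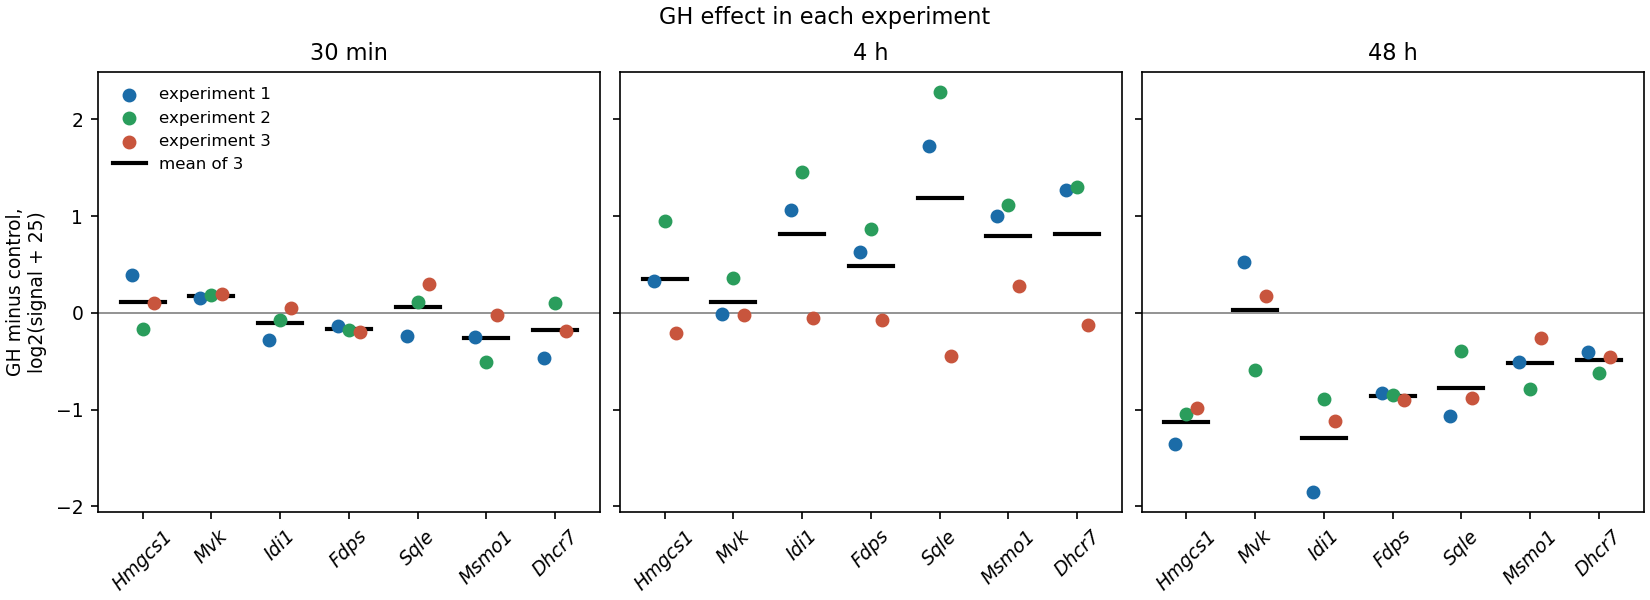
GH minus control on the log2(signal + 25) scale (y axis) for each of the 7 genes (x axis) at 30 min, 4 h and 48 h, with 1 point per experiment and a bar for the mean of the 3. At 4 h the points of experiments 1 and 2 for Sqle lie at 1.72 and 2.28 and that of experiment 3 at -0.45, and at 48 h all 3 points lie below 0 for every gene but Mvk.

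The direction thus differed between 4 h and 48 h for 6 of the 7 genes by the mean, a pattern that 22.4% of all probe sets showed. Among the 7, only Msmo1 was higher in every experiment at 4 h and lower in every one at 48 h, as were 1.79% of probe sets. The GH effects at both times were set against each other in the same model. From 4 h to 48 h the effect changed by -2.11 ± 0.85 (SE) for Idi1, -1.97 ± 0.79 for Sqle, -1.48 ± 0.78 for Hmgcs1, -1.34 ± 0.67 for Fdps, -1.31 ± 0.61 for Msmo1, -1.31 ± 0.49 for Dhcr7 and -0.08 ± 0.31 for Mvk. The median was -1.34, against 0.00 over all probe sets. By limma 0 of 7 were called (adjusted p from 0.994 to 1), and 0.00805% of probe sets were. At an unadjusted p below 0.05, 4 of the 7 passed (Idi1, Sqle, Msmo1 and Dhcr7), against 2.45% of probe sets in that direction.

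Within each of the 3 experiments, the effect was lower at 48 h than at 4 h for every gene but Mvk, as for 14.2% of probe sets. With the experiment as a block, the SE of the change was 0.36 for Idi1, 0.56 for Sqle, 0.31 for Hmgcs1 and 0.27 for Fdps. It was 0.32 for Msmo1, 0.38 for Dhcr7 and 0.25 for Mvk. In that fit 6 of 7 passed at the unadjusted level, against 3.93% of probe sets in that direction, and the unadjusted p of Idi1 was 4.69e-05. The 7 genes were chosen with earlier results of these data known, so such counts here and above are no independent support. Of the 10 other measured enzymes of the pathway, 3 passed in that direction, with a median change of -0.37. After adjustment 0 of 7 passed, with adjusted p-values of 0.116 for Idi1, 0.157 for Hmgcs1 and Fdps, 0.229 for Msmo1, 0.325 for Sqle and 0.341 for Dhcr7, and no probe set on the array was called (0%). Within experiments 1, 2 and 3 the change was -2.91, -2.35 and -1.07 for Idi1, and -2.79, -2.67 and -0.43 for Sqle. The smallest value was that of experiment 3 in all 6 genes. Without experiment 3, Idi1 (-2.63, adjusted p = 0.0476) and Sqle (-2.73, adjusted p = 0.0428) were called by limma, among 0.145% of probe sets. With the block as well, Sqle alone was called (adjusted p = 0.0447; Idi1 0.0523), among 0.169%. Without the 3 arrays of conflicting labels and with the block, Hmgcs1 (-1.90, adjusted p = 0.0417), Idi1 (-2.51, 0.0294) and Dhcr7 (-1.81, 0.0132) were called, among 0.459%.

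The change of direction was also seen in the time courses of each kind of cell. These share arrays with the comparisons above and are no separate evidence. In control cells, 6 of the 7 genes had a higher mean at 48 h than at 4 h, by 0.80 for Hmgcs1, 0.77 for Idi1, 0.76 for Sqle, 0.65 for Msmo1, 0.41 for Dhcr7 and 0.37 for Fdps, and Mvk differed by -0.13. None was called by limma (0 of 7, against 0% of probe sets and 0.00805% with the block). At the unadjusted level 0 of the 7 passed without the block and 3 with it, against 2.54% and 4.39% of probe sets in that direction. Within experiments 1 and 2, control signals of Sqle were 2.70 and 2.52 times as high at 48 h as at 4 h, and 0.780 times in experiment 3. From 30 min to 4 h control cells differed by -0.22 to 0.32, with 0 of 7 called by limma and 0.0886% of probe sets called. None of the 7 passed at the unadjusted level, as 1.45% of probe sets did upward and 1.54% downward.

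In GH-treated cells, all 7 means on the log scale were higher at 4 h than at 30 min. All 7 were lower at 48 h than at 4 h. The mean signal of Hmgcs1 with GH was 1840 at 30 min and 1830 at 4 h, so its first step was upward on the log scale only. The first step of Hmgcs1 turned direction without the 3 arrays of conflicting labels (-0.44) and without experiment 2 (-0.16). The step from 30 min to 4 h was 1.27 for Sqle, 0.91 for Msmo1, 0.83 for Dhcr7, 0.70 for Idi1, 0.69 for Fdps, 0.26 for Mvk and 0.10 for Hmgcs1, with 0 of 7 called by limma with or without the block, against 2.03% and 0.636% of probe sets. At the unadjusted level 3 of 7 passed (Sqle, Msmo1 and Dhcr7), against 5.97% in that direction. Every GH array of Sqle at 4 h was above every one at 30 min, as for 11.2% of probe sets. The step from 4 h to 48 h was -1.34 for Idi1, -1.20 for Sqle, -0.97 for Fdps, -0.89 for Dhcr7, -0.68 for Hmgcs1, -0.66 for Msmo1 and -0.21 for Mvk. Without the block 0 of 7 were called (0.0805% of probe sets), and 3 of 7 passed at the unadjusted level (3.85%). With the block, Idi1 (adjusted p = 0.0246) and Fdps (0.031) fell, among 0.604% of probe sets called lower. For Idi1, Sqle and Dhcr7 all GH arrays at 48 h were below all at 4 h, as for 5.18% of probe sets.

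Ordered by their means over 3 arrays, the 6 groups overlapped widely. The mean of Sqle was highest with GH at 4 h (1520 ± 179, SD, n = 3), followed by control at 48 h (1150 ± 330), control at 4 h (892 ± 896), GH at 30 min (713 ± 505), GH at 48 h (654 ± 143) and control at 30 min (639 ± 349). Fdps, Msmo1, Dhcr7 and Mvk were also highest with GH at 4 h, at 4660 ± 1810, 1280 ± 432, 420 ± 103 and 551 ± 86.3. Hmgcs1 and Idi1 were highest in control cells at 48 h (2470 ± 858 and 1030 ± 514), and both, with Fdps and Dhcr7, were lowest with GH at 48 h (1140 ± 517, 416 ± 256, 2360 ± 915 and 213 ± 50.7). Of the 35 pairs of neighbours in these orders, 4 differed by more than the larger SD of the pair. These were GH at 4 h over control at 48 h for Sqle (gap 365, SD 330) and Dhcr7 (gap 110, SD 103), control at 48 h over control at 30 min for Msmo1 (gap 314, SD 310), and GH over control at 30 min for Mvk (gap 53.6, SD 31.4).

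The remaining probe sets of these genes add a measure for Fdps and little for Mvk. The second bright probe set of Fdps, of the _f_at kind that can read related transcripts, had changes of 0.45 at 4 h and -0.74 at 48 h, beside 0.48 and -0.86 of the first, and correlated with it at r = 0.966 over the 18 arrays. It was not called at 48 h with the block (adjusted p = 0.222). The other Fdps probe sets stayed near background, with mean signals of 60.2 and 14.2, and are not read further. The second Mvk probe set was above background on 1 of 18 arrays. Its changes were 0.56 at 4 h and -0.26 at 48 h, beside 0.11 and 0.03 of the first. The probe sets of Mvk correlated at r = 0.628.

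Of the other enzymes of the pathway, 10 listed genes were analysed here. At 4 h, 8 of the 10 had a higher mean with GH, with a median of 0.27, and at 48 h 7 had a lower mean, with a median of -0.20. Over all genes the medians were 0.01 and 0.02. None of the 10 was called at either time, with or without the block. At the unadjusted level of the blocked fit, 3 were higher at 4 h (Mvd, Cyp51 and Nsdhl; 5.22% of all probe sets) and 2 lower at 48 h (Mvd and Nsdhl; 4.97%). Nsdhl, a sterol dehydrogenase that acts with Msmo1 in demethylation, had control signals of 556.9, 660.7 and 2292.8 and GH signals of 951.8, 1354.1 and 1927.4 at 4 h. It thus had the order of arrays described for Idi1, with changes of 0.50 at 4 h and -0.65 at 48 h. Mvd, the mevalonate diphosphate decarboxylase, changed by 0.57 and -0.45 and was higher with GH at 4 h and lower at 48 h in all 3 experiments.
Cyp51, the lanosterol demethylase, differed by 0.54 at 4 h and -0.29 at 48 h. Its control signals at 4 h were 100.5, 81.2 and 196.7, beside the background level of 105.6. Lss, which closes the ring system to lanosterol, differed by -0.25 and -0.12, and Fdft1, the squalene synthase, by 0.20 and -0.17. Tm7sf2 and Lbr, which share a sterol reductase activity, differed by 0.01 and 0.34 at 4 h and by -0.35 and 0.10 at 48 h. Ebp, a sterol isomerase, differed by 0.16 and 0.19, Sc5d, a desaturase, by -0.14 and -0.24, and Hsd17b7 by 0.50 and 0.05. Both Sc5d and Hsd17b7 are dim on this array, with control means at 4 h of 112 and 75.4. In experiment 3, 6 of these 10 enzymes were called higher, against 9.37% of all probe sets, with a median of 0.42.

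**Figure D4:**
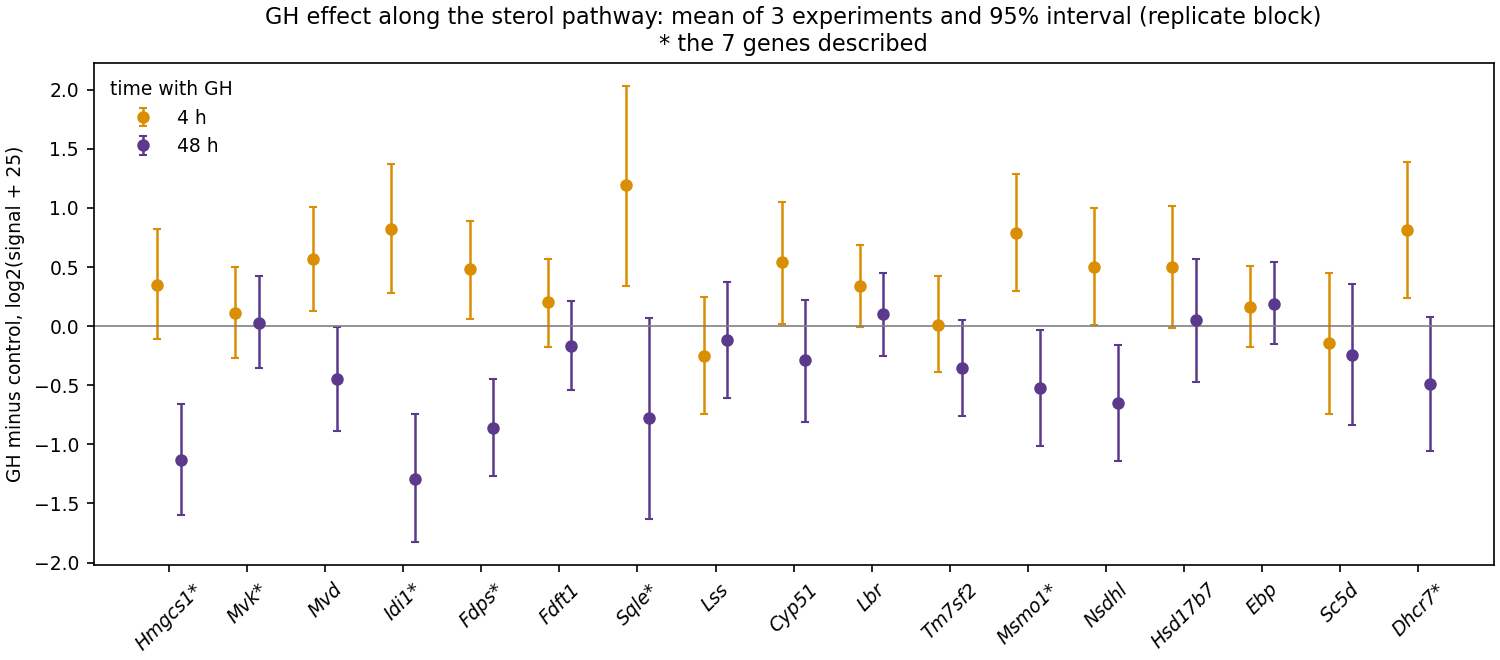
GH minus control on the log2(signal + 25) scale (y axis) for the 17 measured enzymes in pathway order (x axis, an asterisk on the 7 genes described) at 4 h and 48 h. Points are means of 3 experiments and bars 95% intervals of the fit with the experiment as a block, and Idi1 has the lowest point at 48 h (-1.29) and Sqle the highest at 4 h (1.19).

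Regulators and neighbouring pathways were taken from lists. Of the SREBP regulators, 3 were analysed here. Srebf1, which encodes SREBP-1, differed by -0.04 at 4 h and 0.11 at 48 h, the protease gene Mbtps1 by -0.06 and -0.25, and Insig1, which retains SREBP in the endoplasmic reticulum, was below background on every array. In sterol uptake and transport, 6 of 9 genes were measured, 2 with a higher mean at 4 h and 4 at 48 h. Npc2, which carries cholesterol out of lysosomes, had control signals of 6383.7, 5422.4 and 6854.5 and GH signals of 10225.2, 9837.2 and 9504.7 at 48 h. All GH arrays were above all control arrays, and the share of all probe sets with such a separation is not given here. Npc2 was higher with GH by 0.67 (adjusted p = 0.0176 with the block and 0.0532 without it, limma), the opposite direction to the sterol synthesis genes. Lipa, the lysosomal acid lipase, was lowest of that list at 48 h (-0.53, adjusted p = 0.191 with the block). Of 6 measured efflux and storage genes, 6 had a lower mean at 4 h (median -0.34) and 2 at 48 h (median 0.14), and none was called at either time. Of 5 measured genes of the isoprenoid branches, which use farnesyl diphosphate for protein prenylation and other products, none was called at 4 h or 48 h, and the medians were -0.27 and -0.24.

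Fatty acid synthesis genes, which share regulation by SREBP-1 as background, split at 48 h. Of 10 measured, 4 were higher and 6 lower with GH, with a median of -0.20. Scd2, a desaturase, was lower with GH by 0.88 (adjusted p = 0.0303, limma, 3 arrays a group). Fads1, the delta-5 desaturase, was higher by 1.08 (adjusted p = 0.0303). The elongase gene Elovl5 was higher by 0.59 and was called with the block only (adjusted p = 0.0421). Fasn, the fatty acid synthase, had the lowest change of the list at 48 h, at -1.24 (adjusted p = 0.101; 0.0698 with the block). At 4 h none of the list was called, and its median was -0.04, beside 0.79 for the 7 sterol synthesis genes.

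Over the 18 arrays, 6 of the 7 genes followed each other closely. The correlation (Pearson r of log2 signals) of each gene with the mean of the other 6 was 0.952 for Fdps, 0.928 for Msmo1, 0.925 for Idi1, 0.91 for Sqle, 0.87 for Hmgcs1, 0.819 for Dhcr7 and 0.562 for Mvk. These points share experiments, so the experiment means were also removed, which gave 0.895 for Sqle, 0.884 for Fdps, 0.846 for Msmo1, 0.84 for Idi1, 0.819 for Dhcr7, 0.686 for Hmgcs1 and 0.244 for Mvk. Among pairs, Idi1 and Fdps were the most alike (r = 0.953), and without the experiment means Idi1 and Fdps (0.898) and Sqle and Dhcr7 (0.874) were.
Among 5433 other genes above background, the 10 most like the mean of the 7 were Nsdhl (r = 0.961), Mvd (0.933), Anxa2 (0.923), Serpinh1 (0.904), Ostc (0.903), Nid2 (0.902), S100a10 (0.896), Acly (0.888), Ppp1r14b (0.886) and Psmb4 (0.883). With the experiment means removed, Nsdhl remained at rank 1 (0.91) and Mvd was at rank 9 (0.836), while Nid2 went to rank 54 and Psmb4 to rank 71. Ranks 2 to 5 were then held by Fkbp4 (0.899), Fam162a (0.858), Ran (0.854) and Psmd12 (0.854). These are in none of the sterol lists, so likeness to the 7 was not particular to sterol synthesis genes. Without experiment 3, r was 0.927 for Nsdhl and 0.826 for Mvd. Acly, the ATP-citrate lyase that makes cytosolic acetyl-CoA, changed by 0.36 at 4 h and -1.13 at 48 h (adjusted p = 0.092 with the block) and was higher in experiment 3 by 1.46. These correlations are descriptions over 18 arrays, with no test.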

How the data were processed

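RNA of 18 samples was measured on 1-colour arrays. The authors deposited a linear signal intensity for each probe set on each array, and the summary method, software and scaling behind these intensities are not given in the sources used here. From the deposited intensities, log2(signal + 25) was computed, where 25 is the 20th percentile of signals above 0. Array medians differed by 0.25 on that scale, under the limit of 0.3 for a further normalization. The 66 control probe sets of 12488 were left out. Gene names came from the platform table by gene symbol.

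limma 3.58.1 in R 4.3.3 fitted 1 model of the 6 groups (12 residual degrees of freedom), two-sided, with Benjamini-Hochberg adjustment over 12422 probe sets and a threshold of 0.05. "Called" means past that threshold, and 95% intervals are those of the fit. The fit was also run on simulated data, but no outcome of that run is given here. How the fit without the block behaves under a difference between whole experiments is therefore not shown. Deviations of GH and control arrays of the same experiment from their group means correlated at 0.151 to 0.457 across probe sets, all above the limit of 0.1, so the experiment numbers of the labels were taken to pair the arrays. The fit with the experiment as a replicate block had 10 residual degrees of freedom. At 48 h, the GH array that correlated best with the control array of experiment 1 was that of experiment 2 (0.213, against 0.166 for its own).

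Named genes were the 7 members, every measured sterol synthesis enzyme, and each gene of the sterol and fatty acid lists called between GH and control. The 10 genes most like the members were also named, with some more like them once the experiment means were removed. Of the genes at an end of their list, and of the markers and GH response genes, only some were named. Members and lists were chosen with earlier results of these data known. The number of arrays, 3 a group, limits the precision. Alternatives changed the pseudocount, normalization, filter, arrays in the fit, the block and each replicate.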

Additional observations from a re-analysis of the deposited data

Results flagged for a closer look

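Msmo1 was the gene of the 7 whose GH effect had opposite directions in every experiment at 4 h and at 48 h. GH minus control was 1.00, 1.11 and 0.28 at 4 h and -0.51, -0.79 and -0.26 at 48 h in experiments 1, 2 and 3. The effect changed by -1.31 from 4 h to 48 h. The difference itself had an adjusted p of 1 by limma without the block and 0.229 with it, so it was not called. Among all probe sets, 1.79% had this pattern of directions.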

How the results depend on the processing

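Over all probe sets, the calls without the block were 5 at 30 min, 15 at 4 h and 42 at 48 h for GH against control, 1 for the change of the GH effect from 4 h to 48 h, 11 and 0 for control cells at 4 h against 30 min and at 48 h against 4 h, and 79 and 10 for GH-treated cells in the same steps. At an unadjusted p below 0.05 the step of control cells from 4 h to 48 h had 316 probe sets higher and 196 lower by limma. With the experiments paired as a replicate block the counts were 10, 45 and 158 for GH, 0 for the change (536 higher and 488 lower at the unadjusted level), 1 for control cells at 48 h against 4 h, and 252 and 155 for GH-treated cells, and the block moved no other count by more than 1.5 times. With the block, 3 of the 7 genes were called at 48 h and 2 in GH-treated cells at 48 h against 4 h. With only the arrays of the groups compared, the counts were 3, 0 and 0 for GH, 0 for the change, 3 for control cells at 4 h, and 31 and 0 for GH-treated cells; the fewer arrays leave fewer degrees of freedom. A pseudocount of 100 gave 8 at 30 min, 1 for control cells at 48 h, and 130 and 36 for GH-treated cells, and a median of the 7 genes at 48 h of -0.72 in place of -0.78. A pseudocount of 5 gave 7 for control cells at 4 h and 6 for GH-treated cells at 48 h. Only probe sets above background gave 73 at 48 h, 1 for control cells at 48 h, and 125 and 45 for GH-treated cells.

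Without the 3 arrays with conflicting labels, the counts were 3 at 30 min, 32 at 4 h, 4 for the change, 2 for control cells at 48 h and 31 for GH-treated cells at 48 h, and the medians of the 7 genes were 0.20 at 30 min, -0.54 at 48 h and 0.18 for GH-treated cells at 4 h against 30 min. In that fit the means of Idi1 (0.24), Fdps (0.05) and Dhcr7 (0.16) at 30 min, of Mvk at 4 h (0.00) and of the Mvk change (0.12) turned direction, none of them called, as did the step of Hmgcs1 in GH-treated cells from 30 min to 4 h (-0.44). With the block as well, the counts were 192 at 4 h, 142 at 48 h, 57 for the change, 4 for control cells at 48 h, and 203 and 326 for GH-treated cells. The median of the 7 at 48 h was -0.91, Idi1 at 30 min was 0.01, and the members called were 1 at 4 h, 2 at 48 h, 3 for the change, and 1 and 3 for GH-treated cells.

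Leaving out 1 experiment without the block gave 1 to 6 probe sets at 30 min, 0 to 106 at 4 h, 0 to 103 at 48 h, 0 to 18 for the change, 1 to 7 and 0 to 3 for control cells, and 15 to 177 and 0 to 131 for GH-treated cells. With the block it gave 0 to 2, 0 to 165, 1 to 145, 0 to 21, 4 to 7 and 0 to 1, and 20 to 229 and 0 to 242. For GH-treated cells at 4 h the blocked count was 33 without experiment 1. The highest count at 4 h, at 48 h, for the change and for GH-treated cells was without experiment 3. The members called ran from 0 to 2 at 4 h, 0 to 2 for the change, and 0 to 2 and 0 to 3 for GH-treated cells, and their median at 48 h from -0.86 without experiment 2 to -0.64 without experiment 1, with -0.73 without experiment 3. Uncalled values that turned direction were Hmgcs1 at 30 min (-0.03 to 0.25), Sqle at 30 min (-0.06 to 0.21), Mvk at 4 h (-0.01 to 0.17), Mvk at 48 h (-0.21 to 0.35, with -0.03 without experiment 3) and the Mvk change (-0.39 to 0.36). Uncalled steps between times turned for Hmgcs1 in GH-treated cells at 4 h (-0.16 without experiment 2) and in control cells for Hmgcs1 (0.03) and Idi1 (0.01) at 4 h without experiment 2, Fdps and Sqle (-0.22 each) at 4 h without experiment 3, and Mvk (0.02) at 48 h without experiment 1. Quantile normalization turned no direction among the 7 genes. The cause of these differences between settings was not tested.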
